A study of Homo sapiens with 14 samples.

Results

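The genes described here encode the parts of the mitochondrial respiratory chain downstream of complex I, together with many of the factors that assemble them: complex II (the SDH genes), complex III (CYC1 and the UQCR and UQCC genes), cytochrome c (CYCS), complex IV (the COX and COA genes) and complex V (the ATP5 and ATPAF genes). They were taken by name from the protein-coding genes of GENCODE on the nuclear chromosomes, which gave 76 of 20033 genes: 4 of complex II, 16 of complex III, 1 for cytochrome c, 33 of complex IV and 22 of complex V. The rule reads gene names only and uses no peak value. A peak was counted for a gene when its centre lay in a window around any of the gene's transcription start sites (TSSs) that reached 2 kb upstream and 1 kb into the gene. By this rule 62 of the 20429 peaks in the untreated list and 69 of the 35287 peaks in the dTAG-V1 list belonged to these genes.

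The peaks came from ChIP-seq of ZNF143 with a polyclonal Proteintech antibody in HEK293T, a human embryonic kidney cell line. All cells, controls included, were of a line in which ZNF143 carried the FKBP12F36V tag, which lets the small molecule dTAG-V1 send the protein to degradation. The untreated group had 4 samples, and the dTAG-V1 group had 4 samples treated with 0.5 µM for 30 min. The 6 CTCF samples of the series were not analysed here. The authors deposited 1 peak list per group, the names inside the untreated list say DMSO where the labels say untreated, and neither list holds values per replicate or read counts per peak. According to the methods, an untreated peak had to be found in every replicate and a dTAG-V1 peak in any of them. If the deposited lists follow this unequal rule, counts of genes in 1 list only carry that difference. Whether they follow it could not be checked. Without values per replicate or read counts, the depth behind a value is unknown and no spread between replicates can be given. No difference between the lists was tested. The amount of ZNF143 left after treatment was not analysed here.

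Complex II passes electrons from succinate to ubiquinone, complex III passes them on to cytochrome c, complex IV hands them to oxygen, and complex V (ATP synthase) uses the resulting proton gradient to make ATP. Except for complex II, each enzyme combines subunits encoded in the nucleus with subunits encoded in mitochondrial DNA. All of them depend on dedicated assembly factors, which for complex IV include proteins that make heme A or deliver copper. ZNF143 is a zinc-finger activator that recognises the Staf binding site (SBS), found mainly near transcription start sites. SBS1 is the form around a core such as TTCCCA, and SBS2 carries the block ACTACA before a like core. CTCF is a separate zinc-finger protein with its own motif. The antibody used here is known to recognise CTCF as well, so a peak, above all one over a CTCF motif, need not mark ZNF143, and which protein gave a peak was not tested.

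The strongest matches to SBS2, SBS1 and the CTCF motif in the members' peaks are shown first, because most of the highest peaks lay over an SBS2 site while the 2 strongest CTCF matches that can be printed lay under weak peaks. They were read from hg38 with 5 flanking bases, 5′ to 3′ on the strand named, and the capitals mark the hit of the motif matrix.
COA3, SBS2, chr17:42798748-42798777, minus strand: acgcgGACTACAACTCCCAGAGTCCactgc
UQCC4, SBS2, chr16:1420906-1420935, minus strand: cggagAACTACATTTCCCGGCATGCcatcg
UQCR10, SBS2, chr22:29767115-29767144, minus strand: tgtcaAACTACAACTCCCAGAAGCCctcgc
COX7C, SBS2, chr5:86617808-86617837, plus strand: cgcgaAACTACATTTCCCACAATCCttcgg
COX7C, second SBS2, chr5:86617860-86617889, plus strand: gtctgAACTACAATTCCCACAATCCagggc
ATPAF2, SBS2, chr17:18039274-18039303, plus strand: gaggaGACTACAAGTCCCAGCGGGCcgctc
COX7B, SBS2, chrX:77899339-77899368, plus strand: ccggaAACTACATTTCCCAAAAGGCcttta
ATP5PO, SBS2, chr21:33915897-33915926, minus strand: ctaagAACTACAACTCCCAGCCCGAgggag
ATP5MJ, SBS1, chr14:103921543-103921571, minus strand: tccgcCTTCCCGGCATCCCCTGCGcgcgc
UQCRC2, SBS1, chr16:21953329-21953357, minus strand: gggagTTTCCCAGCGTTCCCCGCTaacac
UQCC1, CTCF motif, chr20:35303992-35304015, plus strand: cttctCCACTAGAGGGCGCcagct
COX6A1, CTCF motif, chr12:120439833-120439856, plus strand: tgtacCCACTAGGTGGCAGtagta

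In the untreated list 57 of the 76 genes (75.0%) had a promoter peak, beside 40.4% of all protein-coding genes. In the dTAG-V1 list 63 genes (82.9%) had one, beside 48.1% of all. There were 56 genes (73.7%) with a promoter peak in both lists, beside 37.1% of all. The members were thus called more often than genes in general in each list and in both together. ATP5F1C alone (1.32%) was called in the untreated list only, where 3.35% of all genes were, and 7 members (9.21%) were called in the dTAG-V1 list only, where 11.0% of all genes were. The remaining 12 members (15.8%) had no promoter peak in either list, beside 48.5% of all genes.

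**Figure D1:**
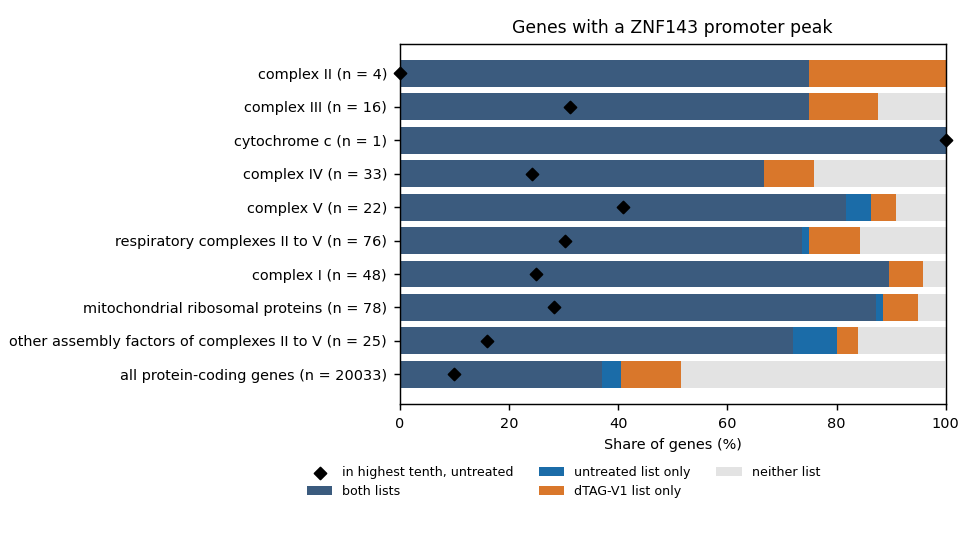
Share of genes (x axis, %) with a promoter peak in both lists, in 1 list or in neither, for each complex, for complexes II to V together, for the comparison lists and for all protein-coding genes; diamonds mark the share with a peak in the highest 10% of the untreated scores. The members together sit at 75.0% in the untreated list against 40.4% of all genes, and their diamond at 30.3% against 10.0%.

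Scores separated the members more than the calls did. The score of a peak in these lists is 10 times the −log10 of its q-value, cut to a whole number, and it grows with the reads behind a list, so values are compared within a list by rank. Where 2 values of a gene are given, the first is from the untreated and the second from the dTAG-V1 list. Of the members, 23 (30.3%) had a peak in the highest 10% of the untreated scores, against 10.0% of all protein-coding genes. In the dTAG-V1 list 28 members (36.8%) did, against 13.4% of all. The 23 were in the highest 10% of both lists, which 9.85% of all genes were. Complex V held 9 of the 23, complex IV 8, complex III 5 and cytochrome c its single gene, while no complex II gene was among them.

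Other nuclear genes for mitochondrial energy production were also called often. For complex I, the NADH dehydrogenase that starts the chain, 43 of 48 genes (89.6%) had an untreated promoter peak and 12 (25.0%) were in the highest 10%. For the mitochondrial ribosomal proteins, which make the subunits encoded in mitochondrial DNA, these counts were 69 of 78 (88.5%) and 22 (28.2%). For 25 further assembly factors of complexes II to V they were 20 (80.0%) and 4 (16.0%). Complexes II to V were thus below all 3 lists in the share called untreated and above all 3 in the share in the highest 10% of that list, and these differences were not tested.

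**Figure D2:**
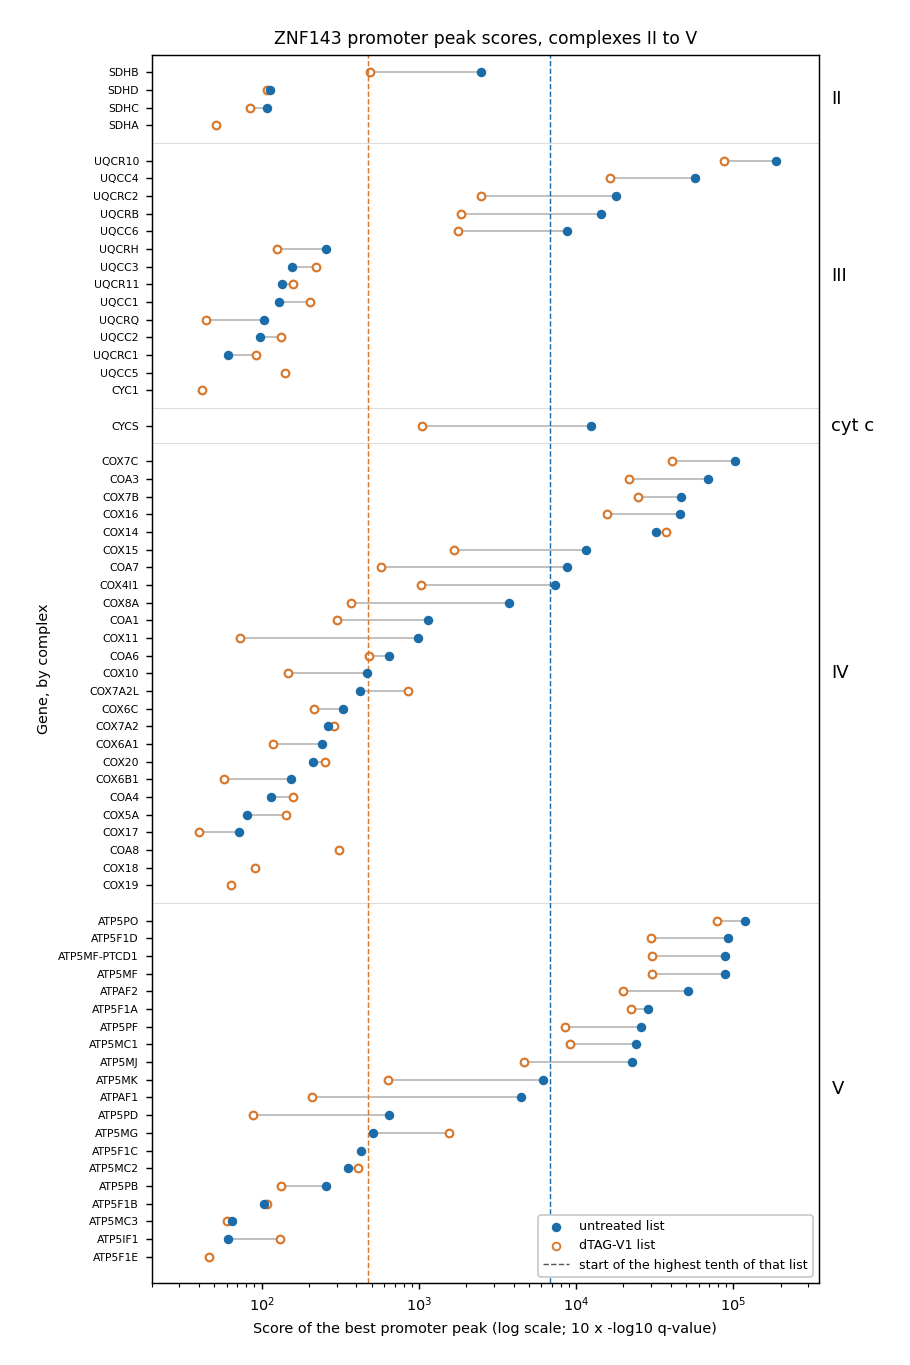
Score of the best promoter peak (x axis, log scale) of the 64 members called in either list, by complex; filled points are the untreated list, open points the dTAG-V1 list, and dashed lines mark where the highest 10% of each list starts (6860 and 476). UQCR10, ATP5PO and COX7C stand at the upper end in both lists, and the complex II genes are all below the untreated line.

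Of the complex II genes SDHB ranked well above the rest, and the other 3 had weak peaks. SDHB, the iron-sulfur subunit, had its peak at chr1:17053748-17054247, with a score of 2485 (−log10 q of 249), rank 2794 and 16.3-fold enrichment in the untreated list. With dTAG-V1 the SDHB peak at chr1:17053849-17054219 scored 491 (−log10 q of 49.2), rank 3453, with 6.98-fold enrichment. Its summits lay 59 and 49 bp upstream of a TSS, and this gene was the only one of complex II to enter the highest 10% of a list, that of dTAG-V1.

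SDHC and SDHD, which anchor the enzyme in the inner membrane, lay in the lower part of both lists. SDHC scored 108 (rank 12600, −log10 q of 10.9, 3.05-fold) at chr1:161314337-161315019 in the untreated list and 84 (rank 22010, −log10 q of 8.42, 2.81-fold) at chr1:161314045-161314640 with dTAG-V1. Its summit was 458 bp inside the gene, in intron 1, in the first list and 177 bp upstream in the second. At 645 bp, this was the widest gap between overlapping peaks of any member. SDHD scored 113 (rank 12297, −log10 q of 11.3, 3.26-fold) at chr11:112086610-112086957 in the untreated list and 109 (rank 18386, −log10 q of 10.9, 3.08-fold) at chr11:112085984-112087074 with dTAG-V1, with summits 27 bp downstream and 123 bp upstream of a TSS. Both SDHD peaks were nearer to a TSS of the divergent gene TIMM8B. SDHA, the flavoprotein subunit, had only a dTAG-V1 peak, at chr5:217783-218077, with a score of 51 (rank 28782, −log10 q of 5.12, 2.64-fold) and a summit 448 bp upstream, nearer to CCDC127 on the other side.

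Complex III split into 5 genes in the highest 10% of both lists and a group near the lower end. UQCR10, a small structural subunit, had the highest peak of all members: at chr22:29766866-29767562 it scored 185596 (−log10 q of 18560, 27.0-fold), rank 40 of the untreated list, and at chr22:29766798-29767584 it scored 87065 (−log10 q of 8707, 25.2-fold), rank 27 of the dTAG-V1 list. The summits were 235 and 238 bp upstream of the TSS, close to the site shown above, and the peak held 4 SBS2 hits; the window also covered ZMAT5, which is read the other way. UQCC4, an assembly factor, followed with 56935 (rank 584, −log10 q of 5694, 37.6-fold) at chr16:1420677-1421182 and 16416 (rank 656, −log10 q of 1642, 30.5-fold) at chr16:1420628-1421204, with summits 153 and 149 bp upstream.

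UQCRC2, a core subunit, scored 17960 (rank 1407, −log10 q of 1796, 25.2-fold) at chr16:21952686-21953730 and 2482 (rank 1644, −log10 q of 248, 12.6-fold) at chr16:21952587-21953683, with summits 29 and 40 bp downstream of a TSS. UQCRB, which contributes to the ubiquinone site, scored 14414 and 1846. UQCC6, an assembly factor, scored 8791 and 1782 at a start site it shares with TDG, 8519 bp upstream of its canonical TSS, and 3004 and 555 at the canonical one. The other complex III genes in both lists were far lower: UQCRH, UQCC3, UQCR11, UQCC1, UQCRQ, UQCC2 and UQCRC1 had untreated scores from 256 down to 61. The core subunit UQCRC1 was at the lower end with ATP5IF1, and these 2 genes had the lowest best score of the untreated list, 61. The UQCRC1 peak at chr3:48609439-48610058 (rank 16558, −log10 q of 6.18, 2.56-fold) had its summit 96 bp inside the gene, and the dTAG-V1 peak at chr3:48609336-48610356 scored 92. ATP5IF1, the inhibitor of complex V, had its untreated peak at chr1:28235441-28235926 (rank 16612, −log10 q of 6.11, 2.25-fold) 610 bp upstream of a TSS and scored 130 with dTAG-V1.

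CYCS, which encodes the carrier between complexes III and IV, was in the highest 10% of both lists. The peak at chr7:25125056-25125700 scored 12477 (rank 1644, −log10 q of 1248, 24.1-fold) in the untreated list, and that at chr7:25124973-25125836 scored 1049 (rank 2232, −log10 q of 105, 8.26-fold) with dTAG-V1. Both summits lay upstream of the TSS, by 241 and 239 bp. No SBS hit at p 1e-05 was found in these peaks, though both had one at p 5e-05.

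In complex IV, 8 of 33 genes were in the highest 10% of both lists, and 4 of these were assembly factors with their own start site there. COX7C, a small subunit, led with 102372 (rank 215, −log10 q of 10237, 33.3-fold) at chr5:86617519-86618266 and 40504 (rank 172, −log10 q of 4050, 30.8-fold) at chr5:86617499-86618324, with summits 57 and 54 bp upstream of a TSS on the second of the 2 SBS2 sites shown above. COA3, which works in the translation and assembly of the COX1 subunit, scored 68832 (rank 455, −log10 q of 6883, 36.6-fold) at chr17:42798367-42799038 and 21748 (rank 491, −log10 q of 2175, 30.7-fold) at chr17:42798309-42799066. Its summit was the same base in both lists, 49 bp upstream of the canonical TSS, and CNTD1 starts on the other side. COX7B, another small subunit, scored 46202 (rank 749, −log10 q of 4620, 34.6-fold) at chrX:77899174-77899574 and 24762 (rank 412, −log10 q of 2476, 28.8-fold) at chrX:77899147-77899660, with summits 76 and 73 bp upstream.

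COX14, an assembly factor of the COX1 subunit, scored 32204 (rank 1033, −log10 q of 3220, 30.7-fold) at chr12:50111697-50112317 in the untreated list and 37079 (rank 214, −log10 q of 3708, 31.5-fold) at chr12:50111650-50112288 with dTAG-V1, with summits 161 and 162 bp upstream. It was the only member of the highest 10% of the untreated list whose score was higher with dTAG-V1. COX15, which makes heme A, scored 11624 and 1676, COA7 scored 8721 and 573, and COX4I1, the widely expressed form of subunit 4, scored 7379 and 1028. COX16, a factor for the copper site of COX2, counted among the highest 10% through a peak of 45565 and 15785 at the start of SYNJ2BP, from which a joint transcript begins 57424 bp upstream of the canonical COX16 start. At its canonical start COX16 had a peak of 3572, rank 2514, in the untreated list and of 2052, rank 1748, in the dTAG-V1 list.

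Below these, COX8A scored 3748, COA1 1140 and COX11, which delivers copper to the enzyme, 992 in the untreated list. COA6, COX10, COX7A2L, COX6C, COX7A2, COX6A1, COX20, COX6B1, COA4, COX5A and COX17 ranged from 647 down to 72. The copper chaperone COX17 was the weakest of the group in both lists and had the lowest best score of any member with dTAG-V1. Its peaks at chr3:119677255-119677480 (untreated, score 72, rank 15489, −log10 q of 7.21, 2.88-fold) and chr3:119677608-119677833 (dTAG-V1, score 40, rank 31807, −log10 q of 4.05, 2.39-fold) did not overlap.

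Complex V had the largest share of genes in the highest 10% of the 3 complexes with more than 4 members, 9 of 22 in the untreated and 11 of 22 in the dTAG-V1 list. ATP5PO, the stalk subunit that ties the catalytic head to the membrane part, scored 118056 (rank 152, −log10 q of 11806, 37.4-fold) at chr21:33915561-33916147 and 79111 (rank 40, −log10 q of 7911, 35.4-fold) at chr21:33915531-33916177, with summits 72 and 71 bp upstream. ATP5F1D, the delta subunit of the head, scored 91779 (rank 277, −log10 q of 9178, 37.3-fold) at chr19:1241430-1241832 and 30084 (rank 309, −log10 q of 3008, 32.5-fold) at chr19:1241303-1241833, with summits 61 and 73 bp upstream of a TSS. ATP5MF, a membrane subunit, and the readthrough gene ATP5MF-PTCD1 share 1 promoter, and their common peak scored 88147 (rank 303, −log10 q of 8815, 33.7-fold) at chr7:99465847-99466587 and 30324 (rank 303, −log10 q of 3032, 30.7-fold) at chr7:99465876-99466631. That promoter is thus counted for 2 genes.

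ATPAF2, the chaperone of the alpha subunit, scored 51246 and 19868, and ATP5F1A, the alpha subunit itself, scored 28644 and 22174. The ATP5F1A peak lay 6006 bp upstream of the canonical TSS, at an upstream start beside HAUS1, while the peak at the canonical TSS scored 469 and 224. ATP5PF scored 25879 and 8523 in a window shared with GABPA, which encodes an ETS-family activator known for its part in the expression of respiratory genes. ATP5MC1, which encodes the ring subunit c, scored 24041 and 9164, and ATP5MJ scored 22663 and 4637. Genes of the catalytic head and of the ring differed widely among themselves. ATP5F1B, the catalytic beta subunit, scored 104 and 109, far from its partner ATP5F1A at the upstream start, and the ring genes ATP5MC2 and ATP5MC3 scored 354 and 65 in the untreated list against 24041 for ATP5MC1. ATP5MK and ATPAF1 lay between, at 6144 and 4484, just under the highest 10% of the untreated list. ATP5PD, ATP5MG and ATP5PB scored 643, 512 and 258 in that list.

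Of the 7 genes called in the dTAG-V1 list only, none reached the highest 10% of that list. COA8, a factor that protects complex IV assembly, was the highest, with 311 (rank 5352, −log10 q of 31.1, 5.49-fold) at chr14:103572056-103572427, in intron 2 and 9239 bp inside the gene from its canonical TSS. Nearer to that TSS, COA8 had only a peak of 35 (rank 32982, 2.33-fold) at chr14:103563080-103563370, with its summit 396 bp inside the gene. UQCC5, an assembly factor of complex III, scored 140 (rank 14445, −log10 q of 14.1, 3.17-fold) at chr3:52536621-52537068, with a summit 169 bp downstream of its TSS. COX18, which inserts COX2 into the membrane, scored 91 (rank 20959, −log10 q of 9.14, 2.72-fold) at chr4:73069766-73070157, and was the only 1 of the 7 with an SBS hit at p 1e-05. The remaining 4 genes were weaker still. COX19, a copper chaperone, scored 64 (rank 25672, −log10 q of 6.47, 2.85-fold) at chr7:975180-975602, SDHA scored 51 as above, ATP5F1E, the epsilon subunit, scored 46 at chr20:59032658-59032882, and CYC1 scored 42.

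CYC1 encodes cytochrome c1, which hands electrons from complex III to cytochrome c. Its single peak, at chr8:144095803-144096289, ranked 31040 of the dTAG-V1 list (−log10 q of 4.28, 2.42-fold). The summit was not at the canonical start but 1079 bp inside the gene, in coding exon 3, 190 bp upstream of an alternative TSS. A CTCF motif hit at p 1.11e-08, the strongest among all members, lay 44 bp from it.

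ATP5F1C, the gamma subunit, was the single gene called in the untreated list only. Its peak at chr10:7787983-7788440 scored 427 (rank 5771, −log10 q of 42.7, 5.48-fold), with a summit 30 bp downstream of a TSS, in coding exon 1. The peak held an SBS1 hit at p 5.92e-06, placed 192 bp from the summit.

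The 12 genes without a promoter peak fell into a group of 8 and a group of 4, as read after the calls were known. The 8 are tissue-restricted forms or retrogene copies of other members: COX4I2, COX6A2, COX6B2, COX7A1, COX7B2, COX8C, UQCRHL and ATP5MGL. In each of the 8 pairs the common form, COX4I1, COX6A1, COX6B1, COX7A2, COX7B, COX8A, UQCRH and ATP5MG, had a promoter peak in both lists. The scores of these common forms were spread widely, from 153 for COX6B1 to 46202 for COX7B in the untreated list. Copies that are nearly identical to another gene can lose reads to the mapping-quality filter, and its part in these calls was not tested. The nearest peak outside the window was the dTAG-V1 peak 3503 bp upstream of COX4I2, and in the untreated list the nearest was 9263 bp upstream of ATP5MGL.

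The other 4 genes are not restricted forms: UQCRFS1, the Rieske iron-sulfur protein of complex III, COX5B, the zinc-binding subunit of complex IV, COA5, a complex IV assembly factor, and ATP5ME, the e subunit of complex V. Their nearest untreated peaks were 319187, 17889, 546499 and 108156 bp from a TSS. These 4 therefore had no peak near the window in the untreated list. By role, 34 of 40 enzyme subunits and 19 of 24 assembly factors had an untreated promoter peak, and 13 and 8 of them were in the highest 10%.

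Between the lists the members kept most of their promoters. Of the 57 called untreated, 56 (98.2%) were also called with dTAG-V1, beside 91.7% of all protein-coding genes called untreated. The dTAG-V1 list is longer, and when it was reduced to its highest 20429 peaks, 48 of the 57 (84.2%) were still called, beside 73.5% of all genes. The 9 members then left in the untreated list only were ATP5F1C, ATP5MC3, ATP5PD, COX11, COX17, COX6B1, SDHC, UQCRC1 and UQCRQ. With equal list lengths the untreated-only share was thus 11.8% of members and 10.7% of all genes.

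In most members the peaks of the 2 lists overlapped with summits close together, though the summits of some lay up to 645 bp apart. In 54 of the 56 genes called in both, the peaks overlapped, and the exceptions were COX17 and ATP5MC3. The summits of overlapping peaks were a median of 14 bp apart, and 36 of 54 were at most 50 bp apart. Overlap and summit distance were not counted over all protein-coding genes, so these values are not read as particular to the members. The score was higher in the untreated list for 41 of 56 members (73.2%), beside 70.0% of all 7425 genes called in both. Scores also depend on the reads behind each list. The best peak of each list was taken even where the 2 did not overlap, as in COX17, ATP5MC3 and UQCC1. UQCC1 counted as higher with dTAG-V1 through a peak of 203 far inside the gene, while its start had 129 and 118. In rank as a share of the list, 44 of 56 members stood nearer to the top with dTAG-V1, which the longer list by itself can give. That count was not made over all genes. Across the 56 members Spearman's rho between the scores of the 2 lists was 0.92, and across the 7425 genes 0.82. These are descriptions across genes, which are not replicates and share their sequence, cell line and antibody in both lists.

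A few genes stood far apart in the 2 lists. COX11 went from 992 (rank 3904) to 73 (rank 24148), ATPAF1 from 4484 (rank 2356) to 209 (rank 8982) and ATP5PD from 643 (rank 4662) to 88 (rank 21551). ATP5MG went the other way, from 512 (rank 5224) to 1557 (rank 1908), and COX7A2L, which takes part in supercomplexes, from 425 (rank 5785) to 853 (rank 2431). These 5 genes were picked out after their values were seen, and whether their signal changed beyond replicate spread cannot be told from the lists.

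**Figure D3:**
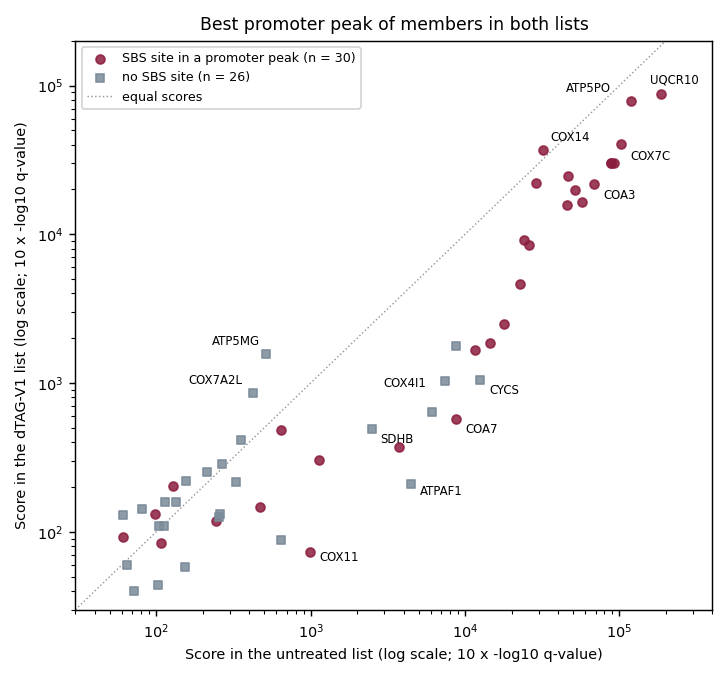
Score of the best promoter peak in the untreated list (x axis, log scale) against that in the dTAG-V1 list (y axis, log scale) for the 56 members called in both; round points are the 30 genes with an SBS hit in a promoter peak, squares the 26 without. Most points lie below the line of equal scores, and the highest points, with UQCR10, ATP5PO and COX7C among them, are round.

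SBS hits were most common under the highest peaks. At p 1e-05 an SBS hit was found in 29 of the 62 untreated peaks of members (46.8%, Wilson 95% interval 34.9 to 59.0%), beside 42.0% of all protein-coding promoter peaks of that list. In the dTAG-V1 list it was found in 31 of 69 (44.9%, 33.8 to 56.6%), beside 29.5%. These intervals cover counting error only. Member peaks were also wider, with a median of 605.5 bp untreated, beside 490 bp for all promoter peaks. With dTAG-V1 the medians were 698 and 505 bp. A wider peak gives the search more bases, and the shares were not adjusted for width. In the highest 10% of the untreated list 19 of 22 member peaks (86.4%) held a hit, beside 92.7% of all promoter peaks there, and below it 10 of 40 (25.0%), beside 28.8%. The untreated members' share was thus close to that of other promoter peaks of the same height. In the dTAG-V1 list the shares were 20 of 29 (69.0%) against 77.1% in the highest 10%, and 11 of 40 (27.5%) against 17.0% below it.

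Untreated member peaks with an SBS hit had a median score of 22663 (n = 29) and those without a median of 258 (n = 33), where all promoter peaks had 3802.5 and 132. With dTAG-V1 the members' medians were 2482 (n = 31) and 150 (n = 38), where all promoter peaks had 761 and 94. Of the 23 genes in the highest 10% of the untreated list, 20 had a hit in that peak at p 1e-05 and 22 at p 5e-05. CYCS, UQCC6 and COX4I1 were the 3 without a hit at the stricter limit, and COX4I1 was without 1 at the looser limit too. The reverse also occurred, since SDHC and UQCRC1 held SBS hits at scores of 108 and 61.

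SBS1 and SBS2 are not independent searches, because the core is common to both. Of the 31 promoters with an SBS hit (a shared promoter counted once), 25 held SBS1, 20 held SBS2 and 14 held both. In 11 of them an SBS1 hit overlapped an SBS2 hit on the same strand, and all 12 such overlaps, including those at the COA3, UQCC4, UQCR10, ATPAF2, COX7B and both COX7C sites shown above, had the SBS1 hit start 7 bases after the SBS2 hit. ATP5PO had 2 SBS2 hits and no SBS1 hit. UQCR10 and ATP5F1D each held 4 SBS2 hits.

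The best SBS site of each promoter, that with the lowest p, lay upstream of the nearest TSS in 23 of 31, at a median of −87 bp and between −526 bp (COX10) and 276 bp (ATP5PF). It pointed the same way as the gene in 19 of 31. Among untreated peaks the best site was within 50 bp of the summit in 18 of 29 (62.1%), beside 68.9% of all promoter peaks with a hit. The sites of COA3, UQCC4, UQCR10, COX7B, ATPAF2 and ATP5MJ were at most 11 bp from the untreated summit. That of ATP5PF was 391 bp away, inside the peak but apart from its summit. Summits themselves were placed alike: of 57 best untreated summits 39 were upstream of the nearest TSS, 46 were within 200 bp of it, and the median was −49 bp.

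**Figure D4:**
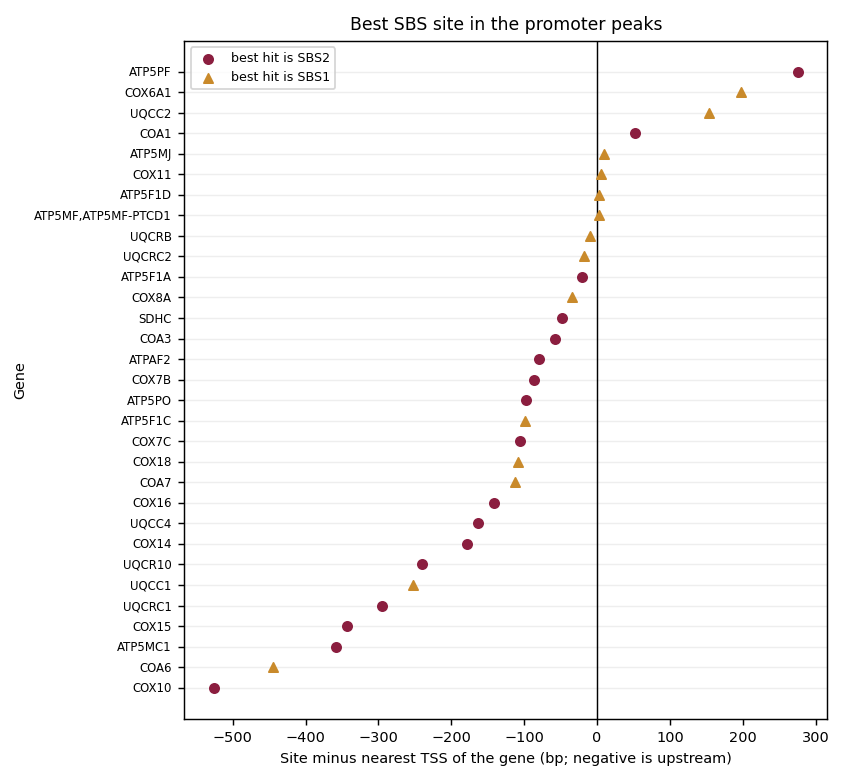
Position of the best SBS site relative to the nearest TSS of the gene (x axis, bp, negative is upstream) for the 31 promoters with a hit, in order of position; round points are SBS2, triangles SBS1. The sites lie between −526 bp in COX10 and 276 bp in ATP5PF, with 23 of 31 upstream.

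The CTCF motif gave lower shares. At p 1e-05 it was found in 13 of 62 untreated member peaks (21.0%, interval 12.7 to 32.6%), beside 16.9% of all promoter peaks, and in 14 of 69 dTAG-V1 peaks (20.3%, 12.5 to 31.2%), beside 22.6%. Only 3 of the 13 best hits in untreated peaks (23.1%) were within 50 bp of the summit, beside 37.3% of all such promoter peaks, and 6 of 14 (42.9%) with dTAG-V1, beside 58.5%. The hits with the lowest p were those of CYC1, of UQCC1 and of COX6A1, the last 2 shown above. The UQCC1 hit belongs to a dTAG-V1 peak of score 203 in coding exon 10, 107984 bp inside the gene from its canonical TSS, with no untreated peak, whereas the UQCC1 start had peaks of 129 and 118. The COX6A1 hit belongs to a second peak in intron 2, with scores of 149 and 92 in the 2 lists, beside 243 and 118 at the start of the gene. In these 3 genes the strongest CTCF matches thus lay in peaks inside the gene and not at its canonical start. None of these peaks was in the highest 10% of its list, though the UQCC1 peak, at rank 9349, was above the dTAG-V1 list median of 114.

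Many of these promoters also serve a neighbour. Of the 64 members called in either list, 28 (43.8%) had a TSS of another protein-coding gene with its window over the best peak, beside 29.7% of all 10307 called genes, and for 8 (12.5%, beside 15.5%) another gene was nearer to that peak. The best peak here is the one placed nearest to the top of its own list. Named partners at high peaks are ZMAT5 for UQCR10, CNTD1 for COA3, MAGT1 for COX7B, GID4 for ATPAF2, CUTC for COX15, EMC8 for COX4I1 and GABPA for ATP5PF. A peak there cannot be ascribed to 1 of the 2 genes.

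Short words in the RefSeq promoters (GRCh38.p14, 250 bases before to 50 after the start, both strands searched) gave a second view that uses no peak. Promoters were found for 61 of the 76 members by symbol. The members not found are absent from all the word counts. Among them are ATP5F1D, ATP5MF, ATP5MF-PTCD1 and UQCRB, which had peaks in the highest 10% of the untreated list. ACTACA, the first block of SBS2, was in 12 of the 61 (19.7%), beside 8.62% of the 15345 protein-coding promoters and 8.95% of all 27305 promoters: ATP5MC2, ATP5PO, ATPAF1, ATPAF2, COA3, COX18, COX6A1, COX7B, COX7C, UQCC1, UQCC4 and UQCR10. TTCCCA, which is contained in neither ACTACA nor the words below, was in 31.1%, beside 22.6% of protein-coding and 24.3% of all promoters. ACTTCCGG, a site form of ETS factors such as GABPA, was in 14 members (23.0%), beside 6.32% and 4.44%. The palindrome read by NRF1 was in 4 (6.56%), beside 1.72% and 1.36%, and AAGATGGCG, a YY1 form, was in 6 (9.84%), beside 2.8% and 1.85%. CCACTAG, from the CTCF motif, was in 1.64%, beside 2.28% and 2.24%. A word is a description of these letters, not a site.

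Of the 12 members with ACTACA, 7 (58.3%) had a peak in the highest 10% of the untreated list, where 44.7% of all protein-coding promoters with the word did. Of the 14 with ACTTCCGG, COX15 alone (7.14%) did, where 20.5% of all with that word did. The median untreated score of the called members was 51246 with ACTACA (n = 11) and 361.5 with ACTTCCGG (n = 12). Over all called protein-coding genes with these words the medians were 39523 and 548.5, so the contrast was not particular to the members. COX5B and COA5, both without a peak, hold ACTTCCGG.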

How the data were processed

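ChIP-seq peaks of ZNF143 were deposited as 1 narrowPeak list for 4 untreated samples and 1 for 4 dTAG-V1 samples. According to the methods, the authors aligned reads to hg38 with BWA, kept properly paired reads passing a mapping-quality limit with SAMtools, removed duplicates with Picard, called peaks with MACS2, and kept canonical chromosomes outside blacklisted regions; the untreated list was to hold peaks found in every replicate and the dTAG-V1 list peaks found in any, an unequal rule that could not be checked from the lists. The deposited peak score, the deposited fold enrichment ratio over local background and the deposited −log10 q-value were used as given; the other deposited columns gave positions and summits. The lists hold no counts, so depth is unknown and no test was possible.

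Peak centres were assigned to TSSs of protein-coding genes (GENCODE release 44; Python 3.11.15, pandas 2.3.3, pysam 0.24.0) in windows from 2 kb upstream to 1 kb inside the gene. SBS1, SBS2 and CTCF matrices were learned from 21717 merged peak regions on odd-numbered autosomes without members' peaks (10 rounds, pseudocount 0.8) and searched on both strands at p 1e-05. Learning and search were tried on shuffled peak regions with planted exact matches to the starting patterns. There 100.0% of planted regions had a hit, and 1.3% or fewer of the others. The matrices of that trial were learned from the planted regions themselves, so finding the sites was built in. Those regions reached at most 100 bp from their middle, so the trial gives no rate of false hits in whole peaks. Members, comparison lists and named genes (every complex II gene, CYCS, CYC1, COA3, the 3 highest of each other complex per list, the genes of 1 list only and the lowest) were chosen with earlier results of these data known. The grouping by role and by paired forms was made after the calls were seen. The alternatives varied the window, TSS set, peak position, q-value, nearest gene, list length, overlap and motif search.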

Additional observations from a re-analysis of the deposited data

How the results depend on the processing

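Of 69 values recomputed under 10 alternatives, 52 stayed within 1.5 times the reported count or within the 95% interval of the reported share, and none could reverse, as no direction was tested. The count in the untreated list only moved from 1 to 2 with the centre within 500 bp of the TSS, to 3 at −log10 q of at least 5, to 2 where the member had to be the nearest gene and to 9 with the reduced dTAG-V1 list, which also took the dTAG-V1-only count from 7 to 2. With the nearest-gene rule 19 members had no peak in either list. These counts follow from fewer peaks being admitted. The motif shares depended on the search. At p 5e-05 the SBS shares were 74.2% (untreated) and 72.5% (dTAG-V1), and both CTCF shares 43.5%. A fixed pattern with at most 1 mismatch gave 4.84% and 4.35% for SBS, and 3.23% and 7.25% for CTCF. With the hit within 100 bp of the summit, the untreated SBS share was 33.9%, and the CTCF shares 6.45% and 10.1%. No paired analysis was possible because each group is 1 list with no replicate values, and for the same reason no replicate could be left out. Depth is unknown, so a missing peak is not evidence that ZNF143 was absent.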
